A study of Mus musculus with 12 samples.

Results

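The complement genes C1qa, C1qb, C1qc, C3, Cfb, Cfp and C3ar1 were followed in cultured airway macrophages (AMs) of mice. They were picked by name, with earlier results of these data known, and they are 7 of the 20551 genes in the count table. All 7 passed the filter on low counts that left 13729 genes for testing, although the 3 C1q genes held at most 87 counts in a library. Of the 7, Cfb and C3 rose with lipopolysaccharide (LPS) in both genotypes. None of the 7 differed between genotypes at an edgeR adjusted p of 0.05, while DESeq2 called Cfb and C3ar1 in medium.

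The AMs came from C57BL/6 mice aged 6 weeks, either wild-type (WT) or carrying the Scnn1b transgene (Tg). The transgene encodes a subunit of the epithelial sodium channel and is driven by the promoter of club cell secretory protein, an airway epithelial promoter, so its own transcript does not check the genotype of macrophages. Cells from 3 to 4 animals were combined in each of 6 pools (WT 16, 17 and 18, Tg 17, 18 and 19), and each pool gave 1 library after 12 h in medium and 1 after 12 h with 100 ng/ml LPS of Pseudomonas aeruginosa. This made 4 groups of 3 libraries. Batch 1 of the 2 library batches held both libraries of Tg 17, WT 16 and WT 17, and batch 2 those of the remaining 3 pools. Sources differ on how the cells were isolated, by adherence of lavage cells or by flow sorting. The libraries held 48.2 to 60.9 M deposited counts. All 12 airway macrophage markers were above the floor, and their summed level was 9539 to 19037 counts per M counts (CPM) over the libraries. Chil3 held 6660 to 14406 CPM of this sum. The markers did not move together with LPS. Siglecf held 103 to 128 CPM in medium and 5.08 to 13.5 CPM with LPS, while Marco held 382 to 725 and 1088 to 2220 CPM. The epithelial marker sum was 94.2 to 115 CPM in WT medium and 47.2 to 83.4 CPM in Tg medium, and its part in the genotype comparisons was not tested.

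Complement is a cascade of serum and locally made proteins that marks microbes and debris for uptake. In the classical pathway C1q, built from A, B and C chains, binds its target and starts the cascade. In the alternative pathway factor B joins C3b to form the enzyme that cleaves more C3, and properdin steadies that enzyme. Cleavage of C3 also frees the small peptide C3a, which is read by the receptor C3aR on myeloid cells. Most circulating C3 and factor B is made in the liver, while macrophages are known as a local source of both and of C1q.

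Promoters of C3 and C3ar1 are shown because C3 rose with LPS in both genotypes and C3ar1 had changes of opposite sign in the 2 genotypes. They are RefSeq windows of 300 bases, from 250 before the transcription start to 50 after it, on build GRCm38.p6, which held 5 of the 7 genes (not C1qa or Cfb). C3 lies on chromosome 17, minus strand, at chr17:57228087-57228386, and capitals mark the letters TTNNGNAA, a loose form of the C/EBP motif.
C3: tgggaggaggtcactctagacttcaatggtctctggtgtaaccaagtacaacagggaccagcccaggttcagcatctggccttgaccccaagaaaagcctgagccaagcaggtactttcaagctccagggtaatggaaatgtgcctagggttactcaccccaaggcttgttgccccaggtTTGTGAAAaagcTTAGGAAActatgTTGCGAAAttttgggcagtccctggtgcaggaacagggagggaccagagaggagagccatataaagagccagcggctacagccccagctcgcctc
C3ar1 lies on chromosome 6, minus strand, at chr6:122856108-122856407, and capitals mark a match to a loose kappa B motif (a run of G and a run of C with any bases between), here on the opposite strand.
C3ar1: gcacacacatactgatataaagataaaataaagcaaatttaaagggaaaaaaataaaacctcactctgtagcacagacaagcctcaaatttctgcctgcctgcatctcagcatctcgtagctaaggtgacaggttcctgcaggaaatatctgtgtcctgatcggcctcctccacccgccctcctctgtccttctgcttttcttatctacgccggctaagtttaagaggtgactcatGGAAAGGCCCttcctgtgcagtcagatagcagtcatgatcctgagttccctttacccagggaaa
The C/EBP letters occurred 3 times in the C3 window, with first bases at -70, -58 and -45 from the transcription start. The kappa B motif occurred 4 times in it, 2 of them overlapping by all but 1 base. Searched on both strands, these letters are common: 40.7% of 32851 promoters held the C/EBP letters and 50.8% held the kappa B motif. The interferon-stimulated response element (in 3.44% of promoters) and the STAT letters TTCNNNGAA (in 8.3%) were not in the windows of these 5 genes.

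**Figure D1:**
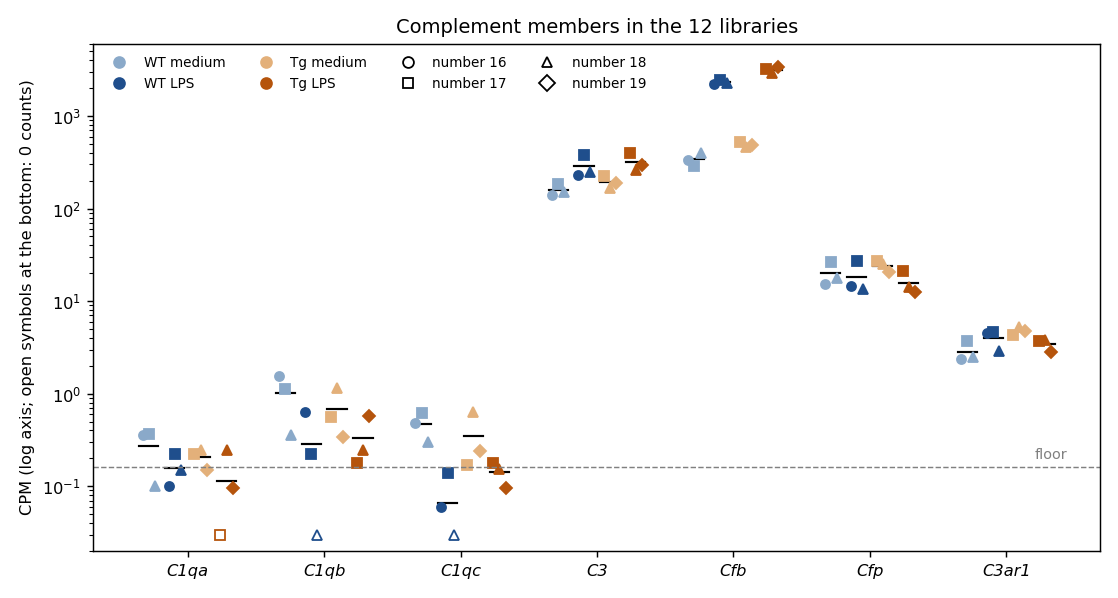
CPM of the 7 complement genes (log axis) in each of the 12 libraries, coloured by group and shaped by pool number, with group means as black bars and the detection floor dashed. Cfb lies highest, with LPS libraries at 2223 to 3348 CPM, and the 3 C1q genes lie lowest, from 0 to 1.56 CPM.

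The initiator chains C1qa, C1qb and C1qc (mm10 chromosome 4, within 136880129 to 136898803, minus strand) were barely detected. A library was taken to be at the floor at 8 deposited counts or fewer, the worth of 3 reads, which is 0.137 to 0.163 CPM. In WT medium, pools 16, 17 and 18 held 0.358, 0.367 and 0.10 CPM of C1qa, 1.56, 1.12 and 0.362 CPM of C1qb and 0.483, 0.611 and 0.301 CPM of C1qc. In Tg medium, pools 17, 18 and 19 held 0.223, 0.247 and 0.149 CPM of C1qa, 0.565, 1.16 and 0.336 CPM of C1qb and 0.171, 0.628 and 0.243 CPM of C1qc. The highest C1q value in the series was thus 1.56 CPM. With LPS, C1qb was lower in 5 of 6 pools and so was C1qc, with no count of C1qb or C1qc in WT LPS 18 and none of C1qa in Tg LPS 17, where a count of 0 allows up to the floor.

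Only C1qc in WT passed the test among the C1q genes with LPS. All 3 WT LPS libraries were at the floor (3, 8 and 0 counts in pools 16, 17 and 18) against 27, 30 and 15 counts in medium. The medium mean of 0.465 ± 0.156 CPM (SD, n = 3) was 2.86-fold the highest library floor of 0.163 CPM. This bound takes the medium mean as exact, while pool 18 held 0.301 CPM in medium. The edgeR adjusted p was 0.016. C1qc passed the filter on low counts through medium libraries alone, where it was higher, so the call is no independent support for a fall. That call did not survive leaving out WT LPS 16, WT LPS 18 or WT medium 17, with adjusted p values of 0.0541, 0.0647 and 0.0563. C1qb in WT had a log2 fold change of -1.85 ± 0.77 (SE) and an edgeR adjusted p of 0.0942, which was 0.0381 with the pool as a block. In Tg the log2 fold changes with LPS were -0.87 ± 0.82 for C1qa, -1.05 ± 0.79 for C1qb and -1.26 ± 0.69 for C1qc, with adjusted p values of 0.442, 0.336 and 0.174. The interaction did not pass for C1qc (1.46 ± 1.12, adjusted p = 0.942). Without the 4 libraries of the pools numbered 17, the Tg against WT difference in medium turned positive for all 3 chains, so no order of the genotypes can be read for C1q.

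As the chains join in equal numbers, their transcript ratios were compared. The log2 ratio of C1qb to C1qa averaged 1.56 in medium and 0.78 with LPS, and the change within pools was -0.78 ± 2.06 (SD, n = 6 pools, exact sign-flip permutation p = 0.4062, two-sided). The changes were -0.89 ± 2.12 for C1qc to C1qa (exact permutation p = 0.375, n = 6) and 0.11 ± 1.19 for C1qb to C1qc (exact permutation p = 0.9375, n = 6). Where a chain had a count of 0, the ratio depends on the prior count. C1qb to C1qa thus stood at 2.51 in Tg LPS 17 (no C1qa) and at -2.33 in WT LPS 18 (no C1qb). With a prior count of 0.5 the SD of its change was 3.13. With 3 comparisons and a smallest possible p of 0.031, no change of the ratios was detectable at these counts, and none can be excluded.

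Factor B (Cfb, chromosome 17, 34856374 to 34862518, minus strand), the protease subunit of the alternative pathway convertase, was the most abundant of the 7 transcripts and had the largest rise with LPS in both genotypes. WT pools 16, 17 and 18 held 332, 291 and 401 CPM in medium and 2223, 2464 and 2301 CPM with LPS. Tg pools 17, 18 and 19 held 520, 467 and 489 CPM in medium and 3255, 2889 and 3348 CPM with LPS. LPS libraries lay far above medium libraries in both genotypes, and each Tg library lay above each WT library of the same treatment. The log2 fold change with LPS was 2.77 ± 0.12 (SE) in WT (edgeR, adjusted p = 4.55e-08), which is 6.84-fold. It was 2.68 ± 0.12 in Tg (edgeR, adjusted p = 3.84e-08), which is 6.43-fold. Within batches the change was 2.91 and 2.52 on the log2 scale in WT and 2.65 and 2.70 in Tg, with 1 pool standing for batch 2 in WT and for batch 1 in Tg.

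The genotype difference of Cfb was smaller and did not pass the test. In medium the mean was 341 ± 55.3 CPM in WT and 492 ± 26.6 CPM in Tg (SD, n = 3), a log2 difference of 0.52 ± 0.11 (SE) with an edgeR adjusted p of 0.0865. With LPS the means were 2329 ± 123 and 3164 ± 243 CPM, a log2 difference of 0.43 ± 0.12 with an adjusted p of 0.304. In medium the difference was 0.74 in batch 1 and 0.25 in batch 2, and it was 0.30 without the pools numbered 17. DESeq2 called it in medium (adjusted p = 0.00305) and not with LPS. The LPS response of Tg minus that of WT was -0.09 ± 0.16 (SE, adjusted p = 0.992).

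Counts of Cfb share a limit with a neighbour. The gene model Gm20547, on the same strand, shares 2246 exon bases with Cfb and 1656 with C2, so reads could be split between them. Gm20547 stood at 1.64 ± 0.719 CPM in WT medium and 11.9 ± 3.67 CPM in Tg LPS (SD, n = 3), far below Cfb.

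C3 (chromosome 17, 57203970 to 57228136, minus strand), the protein on which the pathways converge, also rose with LPS. WT pools 16, 17 and 18 held 141, 185 and 153 CPM in medium and 229, 379 and 249 CPM with LPS. Tg pools 17, 18 and 19 held 225, 165 and 189 CPM in medium and 401, 262 and 294 CPM with LPS. Within each genotype all LPS libraries exceeded all medium libraries. The log2 fold change was 0.83 ± 0.17 (SE) in WT (edgeR, adjusted p = 0.00369) and 0.72 ± 0.17 in Tg (adjusted p = 0.00709), or 1.78-fold and 1.64-fold. Within batches it was 0.87 and 0.71 in WT and 0.83 and 0.65 in Tg. The genotypes overlapped in both treatments, and the log2 difference Tg against WT was 0.37 ± 0.18 in medium (adjusted p = 0.408) and 0.25 ± 0.18 with LPS (adjusted p = 0.914).

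C3 and Cfp were highest in the library of pool number 17 in all 4 groups. Of 9102 genes with a mean of at least 5 CPM, 23.3% were highest in number 17 in all 4 groups and 3.81% in number 18, so both genes share that feature with many others. Without the 4 libraries numbered 17 the C3 change with LPS was 0.70 in WT (edgeR, adjusted p = 0.0036) and 0.64 in Tg (adjusted p = 0.00365).

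Per kilobase of exon the Cfb transcript exceeded C3 in every library. The ratio of Cfb to C3 in CPM per kilobase was 4.08 ± 1.02 in WT medium, 15.8 ± 3.22 in WT LPS, 4.81 ± 0.488 in Tg medium and 18.99 ± 3.36 in Tg LPS (SD, n = 3). LPS libraries ranged from 12.1 to 21.3 and medium libraries from 2.94 to 5.29, without overlap.

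**Figure D2:**
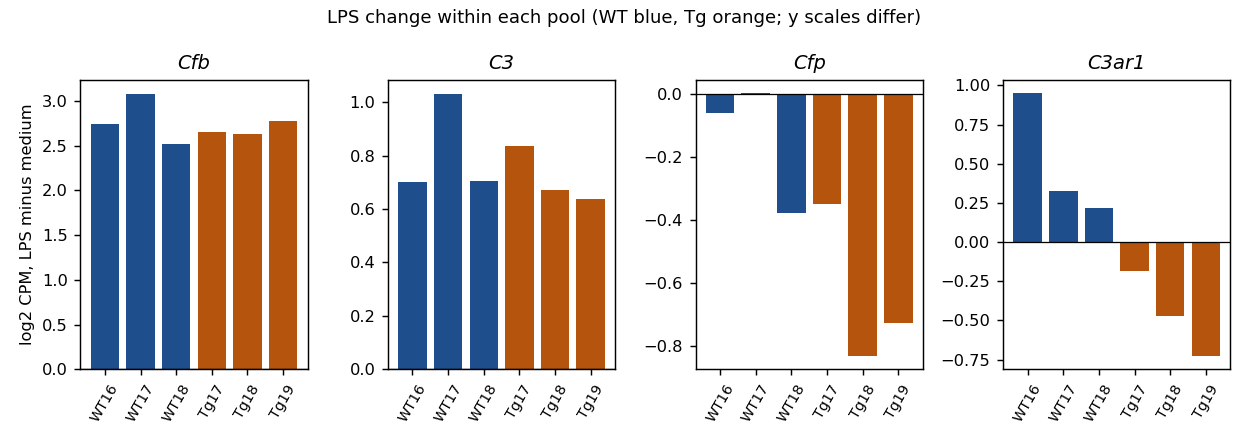
LPS minus medium in log2 CPM for Cfb, C3, Cfp and C3ar1, 1 bar for each pool (WT blue, Tg orange; the y scales differ). Cfb and C3 were higher with LPS in all 6 pools, and C3ar1 was higher with LPS in the 3 WT pools and lower in the 3 Tg pools.

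Properdin (Cfp, chromosome X, 20925454 to 20931555, minus strand), the only known positive regulator of the alternative convertase, did not share the rise. WT pools 16, 17 and 18 held 15.3, 26.7 and 17.6 CPM in medium and 14.7, 26.8 and 13.6 CPM with LPS, which overlap throughout. Tg pools 17, 18 and 19 held 26.9, 25.2 and 20.5 CPM in medium and 21.1, 14.1 and 12.4 CPM with LPS, with pool 17 with LPS a little above pool 19 in medium. The log2 fold change was -0.13 ± 0.24 (SE) in WT (edgeR, adjusted p = 0.729) and -0.64 ± 0.24 in Tg (adjusted p = 0.0605). Each Tg pool was lower with LPS, and with the pool as a block the Tg value of -0.63 passed (adjusted p = 0.00283). The difference between genotypes in this response was -0.50 ± 0.34 and did not pass (adjusted p = 0.929).

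The receptor gene C3ar1 (chromosome 6, 122847138 to 122856161, minus strand) was weakly expressed. WT pools 16, 17 and 18 held 2.35, 3.71 and 2.49 CPM in medium and 4.57, 4.65 and 2.91 CPM with LPS, so all 3 were higher with LPS while the groups overlapped. Tg pools 17, 18 and 19 held 4.26, 5.31 and 4.71 CPM in medium and 3.75, 3.82 and 2.83 CPM with LPS, so all 3 were lower without overlap. Within pools the log2 change was 0.95, 0.32 and 0.22 in WT and -0.18, -0.47 and -0.73 in Tg. The fitted change was 0.50 ± 0.22 (SE) in WT (edgeR, adjusted p = 0.117) and -0.46 ± 0.22 in Tg (adjusted p = 0.12). The interaction was -0.97 ± 0.31 with an adjusted p of 0.67, and the exact permutation of pools between genotypes gave p = 0.1, the smallest that 3 against 3 allows. An opposite direction in all 3 WT and all 3 Tg pools was seen in 162 of 13729 genes (1.18%).

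In medium, C3ar1 was higher in each Tg library than in each WT library. The summed neutrophil markers did not overlap either, at 20.7 to 24.2 CPM in WT and 27.3 to 37.8 CPM in Tg. Of these 8 markers, 6 were above the floor in any of the 12 libraries. S100a9 and Ngp were never above it, and Camp was at 0 CPM in all medium libraries. Nor did the summed airway macrophage markers overlap (13613 to 14216 and 15536 to 19037 CPM). The part of both sums in this difference and in that of Cfb was not tested. The macrophage sum was mostly Chil3, with 9545 to 14406 CPM over the medium libraries, so it is largely a reading of 1 gene. The C3ar1 means were 2.85 ± 0.748 CPM in WT and 4.76 ± 0.524 CPM in Tg (SD, n = 3), a log2 difference of 0.82 ± 0.23 (SE) with an edgeR adjusted p of 0.159, and 0.53 and 0.99 within batches 1 and 2. DESeq2 gave an adjusted p of 0.0387. With LPS the groups overlapped and the difference was -0.14 ± 0.23 (edgeR, adjusted p = 1).

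**Figure D3:**
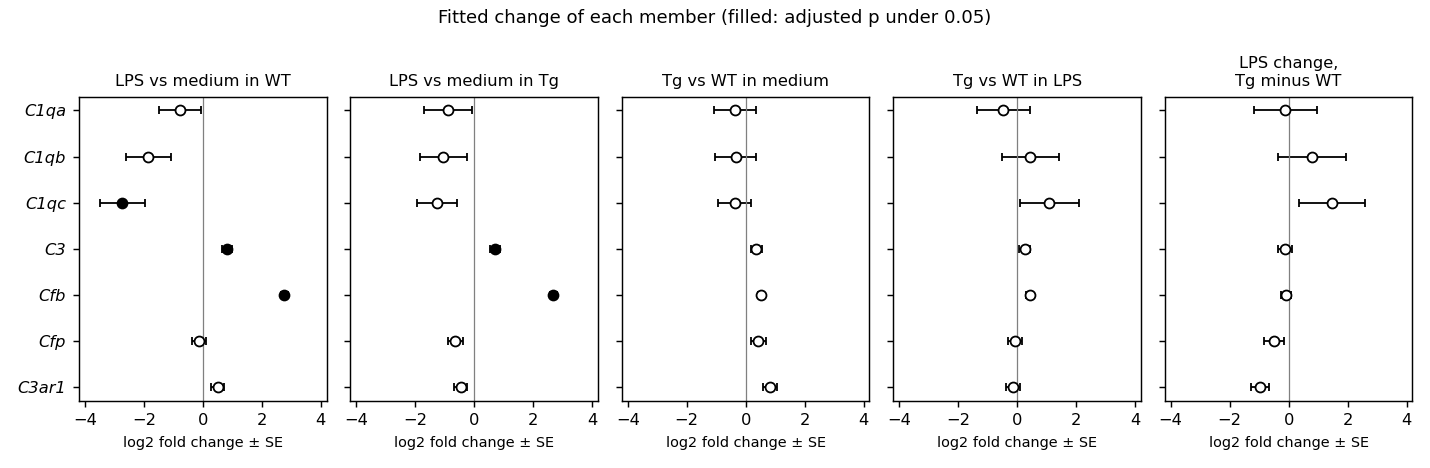
Fitted log2 fold change ± SE of each of the 7 genes in the 5 comparisons, filled where the edgeR adjusted p was under 0.05. Filled points are Cfb and C3 in both LPS comparisons and C1qc in WT, and no point is filled for the genotype comparisons or the interaction.

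Counted together, 3 of the 7 genes passed for LPS in WT (2 higher, 1 lower), or 42.9%, where 31.8% of all tested genes passed, 15.5% higher and 16.2% lower. In Tg 2 of 7 passed (both higher), or 28.6%, where 38.1% of all tested genes passed, 19.3% higher and 18.7% lower. These shares are near the background, and the 1 lower call is C1qc, which entered the test through medium libraries alone. With the pool as a block 4 passed in WT (C1qb added) and 3 in Tg (Cfp added). The share of all genes under that block is not given here, so these 2 counts have no background beside them. The median log2 fold change of the 7 was -0.13 in WT and -0.64 in Tg, against 0.0029 and -0.015 over all tested genes, and it is the same in WT with C1qc set at its bound. In both genotypes this median is the value of Cfp, which did not pass. The values below it are those of the barely detected C1q genes, so it is not read as a fall of the set. LPS and medium groups did not overlap for 3 of 7 genes in WT and 3 of 7 in Tg, where 38.7% and 43.8% of all genes did not. Tg and WT did not overlap for 2 of 7 in medium (Cfb and C3ar1) and 1 of 7 with LPS (Cfb), against 18.4% and 9.11% of all genes. For Tg against WT, none of the 7 passed in medium (0.335% of all genes passed) or with LPS (0.051%). At an unadjusted p under 0.05, Cfb and C3ar1 would count in medium and Cfb with LPS, where 13.4% and 7.12% of all genes do. None of the 13729 genes passed for the interaction in edgeR, 5.95% had an unadjusted p under 0.05, C3ar1 alone among the 7, and DESeq2 called 77 genes and none of the 7.

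The other complement genes were taken from a list of 50, of which 33 were in the table and 19 were tested. In WT 7 of the 19 passed with LPS (2 higher, 5 lower), and in Tg 9 passed (3 higher, 6 lower), shares of 36.8% and 47.4% beside the 31.8% and 38.1% of all tested genes. With the pool as a block the counts were 9 and 10, again without the share of all genes under that block. The median log2 fold change of the 19 was -0.20 in WT and -0.16 in Tg, against 0.0029 and -0.015 over all tested genes. In medium 1 of the 19 was lower in Tg (0.335% of all genes passed), and none passed for Tg against WT with LPS or for the interaction.

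Among proteases of the classical pathway, C1ra, which encodes the C1r protease, rose from 6.01 ± 0.74 to 9.64 ± 1.67 CPM in WT (log2 fold change 0.69 ± 0.15, SE, edgeR adjusted p = 0.0046). In Tg it rose from 7.10 ± 0.43 to 15.01 ± 1.63 CPM (1.08 ± 0.15, adjusted p = 0.000151). With LPS each Tg library held more C1ra than each WT library. The log2 difference of 0.67 ± 0.15 did not pass in edgeR (adjusted p = 0.17), while DESeq2 called it (adjusted p = 0.0108). C2, the classical counterpart of factor B, rose with LPS in WT (1.46 ± 0.43, adjusted p = 0.0242), from 1.26 to 4.00 CPM over the medium libraries to 4.27 to 9.25 CPM. The WT call was lost on leaving out WT LPS 17, WT LPS 18, WT medium 16 or WT medium 17 (adjusted p 0.0657, 0.0903, 0.0694 and 0.0941), without the pools numbered 17 (0.233) and without the batch term (0.081). In Tg its change was 0.99 ± 0.37 (adjusted p = 0.0568), which was 0.000437 with the pool as a block. C2 was higher in each Tg library than in each WT library in medium, where Tg held 5.72 to 16.9 CPM, with a log2 difference of 1.91 ± 0.43 that did not pass (adjusted p = 0.0901). DESeq2 did call it (adjusted p = 0.000213). With LPS the genotypes did not overlap for C2 either (1.44 ± 0.39, edgeR adjusted p = 0.304), and DESeq2 called it (adjusted p = 0.032). Gm20547, which shares exon bases with C2, was at a like level, with 8.13 ± 0.553 CPM against 6.26 ± 2.64 CPM of C2 in WT LPS (SD, n = 3), and it was 4.95-fold higher with LPS in WT (edgeR, adjusted p = 0.0045). A split of reads between these genes could move the C2 values and was not tested.

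Of 8 tested receptors and C1q-binding proteins, 3 fell with LPS in WT, while in Tg 4 fell and 1 rose, where 31.8% and 38.1% of all tested genes passed in either direction. Cd93, first described as a C1q receptor and now seen as a myeloid and endothelial lectin, fell from 38.1 ± 2.97 to 7.47 ± 0.771 CPM in WT (log2 fold change -2.35 ± 0.14, SE, edgeR adjusted p = 4.03e-07). In Tg it fell from 49.4 ± 8.12 to 7.72 ± 0.595 CPM (-2.67 ± 0.14, adjusted p = 1.06e-07). Lrp1, an endocytic receptor that with calreticulin takes part in uptake of C1q-marked cells, fell by 0.39 on the log2 scale in WT (adjusted p = 0.0259) and by 0.97 in Tg (adjusted p = 6.25e-05). Its WT call was lost without WT LPS 16 (-0.25, adjusted p = 0.0671), WT medium 17 (0.0607) or WT medium 18 (0.111), and with only the 6 libraries compared (0.0614). In medium each Tg library held more Lrp1 than each WT library (log2 difference 0.46 ± 0.12, edgeR adjusted p = 0.137). DESeq2 called that difference (adjusted p = 0.0189). The integrin genes Itgax and Itgb2, which encode the chains of complement receptor 4, fell in Tg by 0.59 and 0.40 (adjusted p = 0.00582 and 0.00212). Their WT changes of -0.31 and -0.20 had adjusted p values of 0.116 and 0.0721, and 0.0125 and 0.024 with the pool as a block. C1qbp, a mainly mitochondrial protein that can bind C1q, rose by a log2 of 0.22 in Tg (adjusted p = 0.0366). This call was lost on leaving out any 1 of the 6 Tg libraries (adjusted p 0.058 to 0.139) or WT LPS 18 (0.0545), without the pools numbered 17 (0.0747) and without the batch term (0.0558).

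C5ar1, the receptor for C5a, was the 1 listed gene that edgeR called between genotypes. WT medium pools 16, 17 and 18 held 25.5, 26.4 and 29.4 CPM and Tg medium pools 17, 18 and 19 held 18.6, 20.7 and 19.7 CPM, without overlap. The log2 difference was -0.54 ± 0.09 (SE, edgeR adjusted p = 0.0449), close to the threshold, and leaving out any 1 library other than WT LPS 16 ended the call (adjusted p 0.0539 to 0.199). In WT, C5ar1 also fell with LPS by 0.50 (adjusted p = 0.00135).

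**Figure D4:**
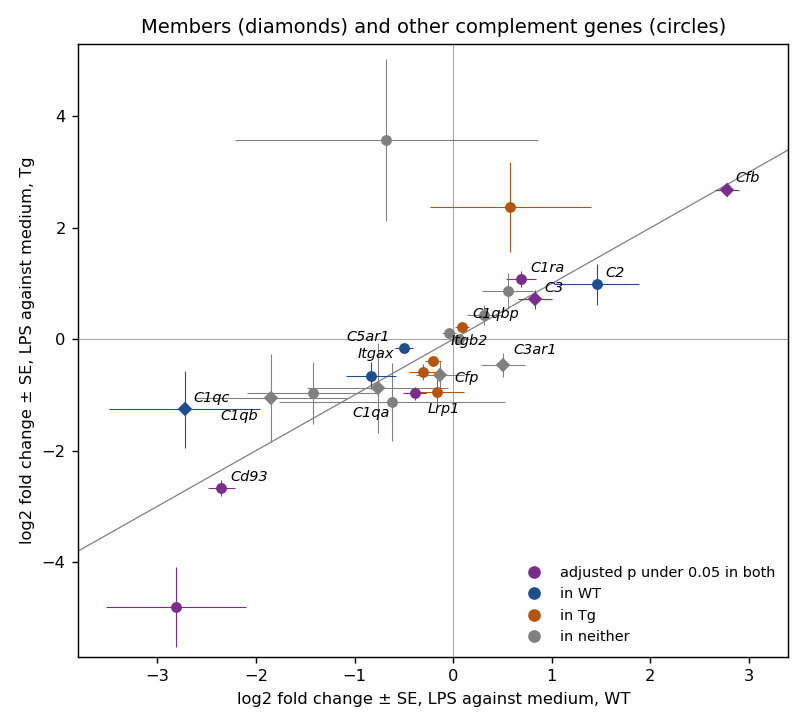
Log2 fold change with LPS in Tg against that in WT, each ± SE, for the 7 genes (diamonds) and the 19 other tested complement genes (circles), coloured by where the edgeR adjusted p was under 0.05. Cfb lies at 2.77 and 2.68 and Cd93 at -2.35 and -2.67, near the line of equal change, and C3ar1 lies at 0.50 and -0.46.

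Over the 12 libraries, the genes most like Cfb by Pearson r of log2 CPM were Gbp2, Cxcl16 and Aoah (0.9965, 0.9957 and 0.9953), among 9102 genes. Those most like C3 were Ddx24, Cry2 and Tm9sf4 (0.9754, 0.9722 and 0.9676), those most like Cfp were Vps11, Crybg1 and Vps52 (0.9388, 0.9302 and 0.9281), and those most like C3ar1 were Selplg, Kctd20 and Wdr83os (0.9259, 0.8172 and 0.8069). Cfb and C3 followed each other with r = 0.86 over the libraries, which share the LPS contrast, and with r = 0.23 once each group mean was taken off. C3 and Cfp had r = 0.0049 over the libraries and 0.86 about the group means. These are descriptions over libraries that share pools and batches.

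Interstitial macrophage markers, a cell type known for C1q, summed to 25.4 to 32.8 CPM in medium and 56.0 to 113 CPM with LPS over 9 genes, while the C1q genes were lower with LPS in most pools. Of that list, Ms4a7 held 9.88 to 101 CPM, Lyve1 was at or under the floor throughout, and Cx3cr1 and Folr2 passed the floor in 1 and 2 libraries.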

How the data were processed

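The authors aligned read pairs to mm10 with HISAT2, unstranded, within nf-core RNAseq 1.2, quantified GENCODE M20 with StringTie and deposited estimated counts per gene as whole numbers. A read appears worth about 2.5 deposited counts, hence the floor of 8 counts for 3 reads. The floor covers counting error only, while SDs and SEs also hold the spread between pools. Symbols and coordinates were taken from GENCODE M21, also on mm10. Each of the 12 libraries was grouped by its title.

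Counts were tested with edgeR 4.0.16 (R 4.3.3) by quasi-likelihood over all 12 libraries, with group and batch as terms, TMM factors, filterByExpr by group and Benjamini-Hochberg adjustment over 13729 genes, threshold 0.05, two-sided. CPM used TMM library sizes, and log2 CPM a prior count of 2. The form of edgeR's quasi-likelihood had not been fixed beforehand. It was set after call counts under 6 settings had been seen, to match an earlier analysis of these data. Over those 6, calls ranged from 4242 to 4368 (LPS in WT), 5032 to 5233 (LPS in Tg), 36 to 46 (genotype in medium) and 7 to 8 (genotype with LPS). The 7 genes gave 3, 2, 0 and 0 calls in each.

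The genes and lists were chosen with earlier results of these data known. Other complement genes are named where the adjusted p passed in any comparison, a group mean reached 5 CPM and the groups did not overlap. The titles give the pool, so medium and LPS libraries of a pool were taken as paired. They deviated together from the group means (r = 0.1374 to 0.3351 in all 6 pools). WT and Tg libraries of a shared number, not taken as paired, had r = 0.1102 to 0.2611. These ranges overlap and batch was not taken off, so r does not decide the pairing. The main model has no pool term, and values with the pool as a block stand beside the results whose call they change. DESeq2 1.42.0 and limma voom 3.58.1 were alternatives. The code was tested on simulated data. Figures were drawn with matplotlib 3.10.9.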

Additional observations from a re-analysis of the deposited data

Results flagged for a closer look

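The response of C3ar1 to LPS had opposite signs in the 2 genotypes: it was positive in all 3 WT pools and negative in all 3 Tg pools. The fitted difference in response, Tg minus WT, was -0.97 ± 0.31 (SE) on the log2 scale, with an edgeR adjusted p of 0.67. The difference did not pass its test, and 1.18% of the tested genes showed such a split.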

How the results depend on the processing

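The LPS calls of Cfb and C3 held in both genotypes under all alternatives run, with log2 fold changes of 2.62 to 2.94 (WT) and 2.64 to 2.76 (Tg) for Cfb and 0.63 to 1.02 (WT) and 0.62 to 0.80 (Tg) for C3. Of 1622 gene values under alternatives, 1515 kept direction and side of the threshold. The depth limits C1q, at 0 to 87 counts. With DESeq2, 2 of the 7 genes (Cfb and C3ar1) were called for genotype in medium. Of the listed genes, 4 were called in medium (C2, C5ar1, Clu and Lrp1) and 2 with LPS (C1ra and C2). The listed count in medium was 0 without the filter, without the batch term, with 6 libraries only, with voom and without the pools numbered 17 (an alternative chosen after seeing the data), and without those pools the listed count for LPS in WT was 4. Over all genes, DESeq2 called 501 (genotype in medium) and 146 (with LPS) against 46 and 7, no filter 18 in medium, only 6 libraries 20 and 2, no batch term 28 and 4, voom 11 with LPS, and 8 libraries (without the pools numbered 17) 4 in medium and 4 with LPS. DESeq2 called 77 genes and these 8 libraries 4 for the interaction, against 0. The cause was not tested.

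Leaving out 1 library gave 2 to 3 calls among the 7 for LPS in WT and in Tg, 0 for genotype, and 0 to 1 listed gene for genotype in medium. Over all genes it gave 3 to 49 calls for genotype in medium and 2 to 10 with LPS. The ratio C1qb to C1qc then ran from -0.22 to 0.44. WT and Tg pools of number 17 share that number and batch 1, and those of 18 share batch 2 (r = 0.1102 to 0.2611), and littermates of both genotypes entered an experiment together, but no source used here ties a number to a litter, so they were not taken as paired. With that replicate block, calls went from 46 to 77 in medium and from 7 to 12 with LPS, with 1 listed gene (C2) with LPS and C2 in place of C5ar1 in medium. With the pool as a replicate block, the 7 genes gave 4 calls for LPS in WT and 3 in Tg, with no share of all genes given for that block. No other call among the 7 changed under either block.

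No value that changed sign passed the test. For C1qa without the pools numbered 17 the values were 0.25 in medium, 0.89 with LPS and 0.64 for the interaction. For C1qb in medium they were 1.47 without these pools, 0.045 by DESeq2 and 0.12 with the number block. Without these pools they were 0.63 for C1qc in medium, 0.066 for the Cfb interaction, 0.0015 for C3ar1 with LPS and -0.056 for Itgax with LPS. For Itgax with LPS they were -0.015 without the batch term and -0.11 with the number block, and for C1qbp with LPS 0.021 with that block. Leaving out 1 library, genotype differences with LPS ran from -1.70 to 0.56 (C1qa), -0.26 to 1.57 (C1qb), -0.24 to 0.20 (Cfp), -0.056 to 0.093 (Cd93), -0.078 to 0.14 (Itgax) and -0.051 to 0.0069 (C1qbp). In medium they ran from -0.999 to 0.40 (C1qb) and -1.07 to 0.58 (C1qc). Interactions ran from -1.43 to 0.76 (C1qa), -0.012 to 1.98 (C1qb), -0.29 to 0.086 (C3) and -0.24 to 0.018 (Cfb), and the Cfp change in WT from -0.43 to 0.061.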
